A study of Homo sapiens with 6 samples.

Results

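MYC, MAX, FOS and JUN are 4 transcription factor genes that work in pairs, and the change of their transcripts after UV light was read in human Hep3B cells, which derive from a hepatoma and carry no p53. The members were all array features annotated by symbol or accession to these genes, with no threshold on their values. They comprised 111 of the 45220 features and 4 of the 843 genes named on the array, with 34 features for MYC, 75 for FOS and a single feature each for MAX and JUN. The treated cells received 10 J/m2 of UVC light and were collected 6 hours later, and the untreated cells were not irradiated. RNA of both conditions was hybridized together on 6 two-colour arrays, in 3 biological replicates. Each replicate was read on a direct array, with the irradiated cells in Cy5, and on a dye-swap array, with the irradiated cells in Cy3. All samples came from 1 cell line, 1 dose and 1 time, which limits the model to these cells at 6 hours. None of the 11 liver markers listed could be analysed here, so the labelled cell type was not checked against its markers.

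MYC is a basic helix-loop-helix leucine zipper factor that drives growth and proliferation genes, and it binds E-box DNA as a dimer with MAX. MAX is the obligate partner of MYC and also pairs with the MXD proteins, which repress the same kind of sites. FOS and JUN are basic leucine zipper factors that join in the dimer AP-1, and JUN can also pair with itself or with ATF2. UV light is a classical inducer of FOS and JUN through the MAP kinases, and the MYC, FOS and JUN transcripts are known to be short-lived, with AU-rich elements in their 3′ ends. UV lesions also block RNA polymerase II.

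The promoters of FOS and JUN are shown for the bases next to the start of transcription alone, and elements further upstream were not searched. The RefSeq windows hold the 120 bases before each start, 5′ to 3′ on the strand of the gene (GRCh38.p14; FOS at chr14:75278708-75278827, plus strand; JUN at chr1:58784048-58784167, minus strand), with the matches found by the search in capitals.
FOS: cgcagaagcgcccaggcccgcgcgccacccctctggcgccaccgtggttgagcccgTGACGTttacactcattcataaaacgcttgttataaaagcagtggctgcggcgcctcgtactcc
JUN: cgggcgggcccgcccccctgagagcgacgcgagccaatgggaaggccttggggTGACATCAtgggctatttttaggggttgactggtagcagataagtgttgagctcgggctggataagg
The FOS window held TGACGT, the core of a cAMP response element, from base -64 to -59, and the JUN window held TGACATCA, the element bound by dimers of JUN and ATF2, from base -67 to -60. The canonical AP-1 site TGACTCA was in neither window. On both strands, TGACGT was in 4.79% of 35116 RefSeq promoter windows of this length, TGACATCA in 1.79% and TGACTCA in 2.34%. These letters describe the windows, and binding to them was not measured here.

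After UV irradiation MYC, MAX and JUN were lower and FOS was higher than in untreated cells. Values are log2 ratios of UV over untreated cells, so a value of -1 is a fall to 50% of the untreated level, and each gene value is the mean over its features. This direction is the likely one and was not settled by the labels alone, and every sign, rank and percentage below would turn with it. The ratios compare conditions and give no level of a transcript, and they stand relative to most other features, to which the arrays were normalized. By limma, in which a gene borrows information on its spread from all the others, 41.4% of the 775 genes tested were called lower and 30.3% higher at an adjusted p of 0.05, so a call alone does not set these genes apart. The median of all genes tested was -0.03.

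MYC had log2 ratios of -0.61, -0.73 and -0.72 on the direct arrays of replicates 1, 2 and 3, and of -0.79, -0.69 and -0.68 on their dye-swap arrays. All 6 arrays lay below 0, and the ranges of the orientations overlapped. These means took in 4 untested features wherever they had a value, so the features averaged differ between arrays. Medians of the 30 tested features were -0.68, -0.72 and -0.67 on the direct and -0.84, -0.775 and -0.75 on the dye-swap arrays. These medians did not overlap. The SD of the gene means over 3 arrays was 0.064 within either orientation, and it was smaller once the arrays were averaged by replicate number. The part of the unequal features in these SDs was not tested. The mean of the 3 replicates was -0.70 ± 0.0073 (SD, n = 3; SE by limma 0.016; 95% confidence interval -0.75 to -0.66), which is 1.63-fold lower, or 61.4% of the untreated level (adjusted p = 8.5e-05). MYC had the tenth lowest ratio of the 466 genes with 3 or more features.

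MAX had log2 ratios of -2.04, -1.54 and -1.80 on the direct arrays and of -2.44, -2.27 and -2.37 on the dye-swap arrays. Every dye-swap array was lower than every direct array, and all 6 lay below every array of the other 3 genes. The mean was -2.08 ± 0.168 (SD, n = 3; SE 0.070; interval -2.27 to -1.88), which is 4.22-fold lower, or 23.7% of the untreated level (adjusted p = 0.00015). MAX thus had rank 4 from the lowest of all 775 genes tested, and the 309 tested genes with 1 feature had a lower median (-0.13) than the 466 with 3 or more (0.0057). The single feature was annotated to 1 of several transcript variants of MAX, and no other feature could be set against it.

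FOS had log2 ratios of 0.39, 0.30 and 0.37 on the direct arrays and of 0.20, 0.17 and 0.27 on the dye-swap arrays. These means took in 10 untested features wherever they had a value, so the features averaged differ between arrays. Medians of the 47 tested features were 0.38, 0.22 and 0.30 on the direct and 0.14, 0.12 and 0.22 on the dye-swap arrays. The lowest direct median thus equalled the highest dye-swap median. All 6 gene means lay above 0, and every direct gene mean was higher than every dye-swap gene mean. The mean was 0.28 ± 0.044 (SD, n = 3; SE 0.024; interval 0.21 to 0.35), which is 1.22-fold higher, or 121.5% of the untreated level (adjusted p = 0.0013). This was the seventh highest ratio of the 466 genes with 3 or more features, although it did not reach the 1.3-fold limit of the study's methods, which 146 of the 775 genes passed downwards and 16 upwards.

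JUN had log2 ratios of -0.81, -0.52 and -0.81 on the direct arrays and of -0.62, -0.52 and -0.72 on the dye-swap arrays. Replicate 2 had the smallest fall in both orientations, and all 6 arrays lay below 0. The mean was -0.67 ± 0.130 (SD, n = 3; SE 0.055; interval -0.82 to -0.51), which is 1.59-fold lower, or 63.0% of the untreated level (adjusted p = 0.0012). It ranked 61st from the lowest of the 309 tested genes with 1 feature.

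**Figure D1:**
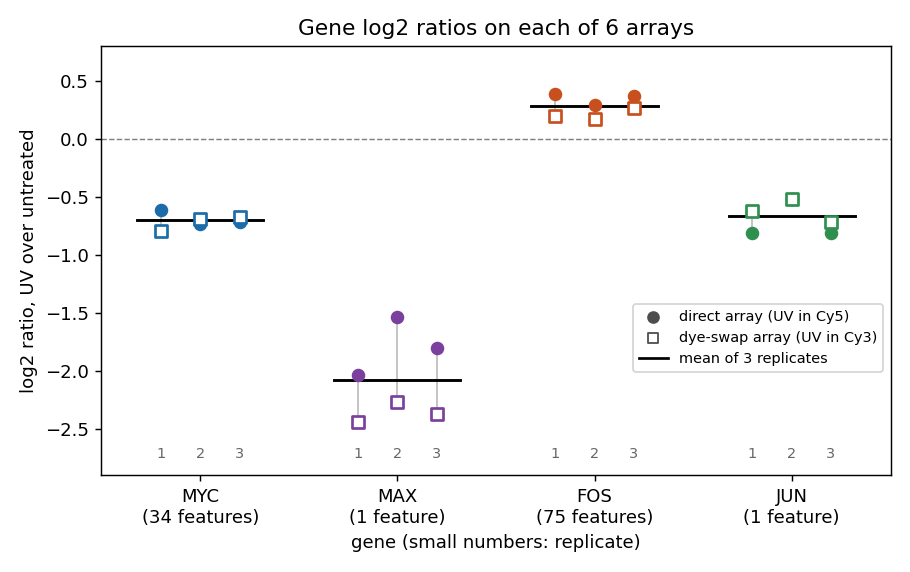
Log2 ratios of UV over untreated (vertical axis) of the 4 genes on each array, as filled circles for direct and open squares for dye-swap arrays, joined within each replicate, with the mean of 3 replicates as a black bar. MYC and JUN lie side by side near -0.70 and -0.67, MAX lies lowest at -2.08, and FOS lies above 0 on all 6 arrays.

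The partners of each dimer differed, with FOS above 0 and JUN below it, and with MAX below MYC. FOS exceeded JUN by 1.01, 0.75 and 1.08 log2 units in replicates 1, 2 and 3, with a mean difference of 0.95 ± 0.173 (SD). MYC exceeded MAX by 1.54, 1.20 and 1.39, with a mean difference of 1.37 ± 0.172. In the other direction, MAX was below JUN by -1.41 ± 0.105 and below FOS by -2.36 ± 0.201, and the difference of MYC from FOS was -0.98 ± 0.037.

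MYC and JUN were the pair whose order did not hold. Their difference was 0.012, -0.19 and 0.069 in the 3 replicates, with a mean of -0.037 ± 0.136 (SD), so the spread between replicates was larger than the difference. With 3 replicates the exact sign-flip permutation test, two-sided, cannot go below p = 0.25, which was the value of the other 5 pairs (0.3 adjusted over the 6 pairs), and p = 1 was found for MYC and JUN.

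Single features of MYC and FOS show how far these gene means were shared by the features of a gene, whose positions were not known. Of the 34 MYC features, 30 were tested and all 30 fell, 26 of them past 1.3-fold. Of the 34301 features tested on the array, 28.2% were called lower and 26.3% higher. These shares carry no fold limit, and a share past 1.3-fold was not worked out over all features. The other 4 MYC features had values on too few arrays for the test. On the array with the smallest fall of the MYC gene mean, direct array 1, the tested features ranged from -1.42 over a median of -0.68 to -0.03. On the dye-swap array of the same replicate they ranged from -1.50 over a median of -0.84 to 0.03. Of the 30 features, 28 lay below 0 on all 6 arrays, and the share of all features with 1 sign on all 6 was not worked out.

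The MYC features nevertheless fell by very different amounts. The lowest, feature 39156, had -1.42, -1.55 and -1.52 on the direct and -1.50, -1.56 and -1.49 on the dye-swap arrays, and it was the lowest MYC feature on 6 of 6 arrays. Its mean of -1.51 (SE 0.033) was a 2.84-fold fall. The highest, feature 29399, had -0.07, -0.20 and -0.15 on the direct and 0.03, -0.15 and -0.19 on the dye-swap arrays, with a mean of -0.12 (SE 0.041, adjusted p = 0.049). The lower and upper quartiles of the features were -0.92 and -0.60, around a median of -0.72. The SD over features was 0.316, against a median SD over replicates of 0.039 for the same features. Replicates ranked the features much alike, with Pearson's r of 0.975 to 0.990 across the 30 features, which share their libraries and are not independent replicates.

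None of the 30 MYC features was as low as the single feature of MAX, and 19 were lower than the single feature of JUN while 11 were higher. For MAX and JUN, with 1 feature each, no spread over features could be measured.

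The FOS features were less complete. Of 75 features, 18 had no value on any array, 10 had values on too few arrays, and 47 were tested, of which 42 had a value on all 6 arrays. By limma 37 of the 47 were called higher, 10 of them past 1.3-fold, and none was called lower, also at an unadjusted p under 0.05. The background for the 37 is the 26.3% of all features called higher with no fold limit, and without replicate 3 the count was 22. The count past 1.3-fold has no such share beside it. The 10 features that did not pass included the lowest, feature 7084, at -0.02. Of the 42 complete features, 24 lay above 0 on all 6 arrays, again with no share over all features beside it.

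The FOS features were uneven, with 5 of them above the rest. Feature 40242 had 1.64, 1.56 and 1.64 on the direct and 1.20, 0.92 and 1.08 on the dye-swap arrays, and feature 845 had 1.10, 0.90 and 1.21 on the direct and 1.39, 1.07 and 1.51 on the dye-swap arrays. Both were high on all 6 arrays, with means of 1.34 (SE 0.042, 2.53-fold) and 1.20 (SE 0.071, 2.29-fold). Features 11053, 29363 and 34122 followed at 0.75, 0.74 and 0.71. The remaining 42 tested features reached at most 0.54, with a median of 0.18. The median of all 47 was 0.21 and their SD was 0.274, against a median SD over replicates of 0.071. Across genes with 3 or more features the SD over features had a median of 0.135, and 57 of the 466 had a larger one than MYC and 81 a larger one than FOS.

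**Figure D2:**
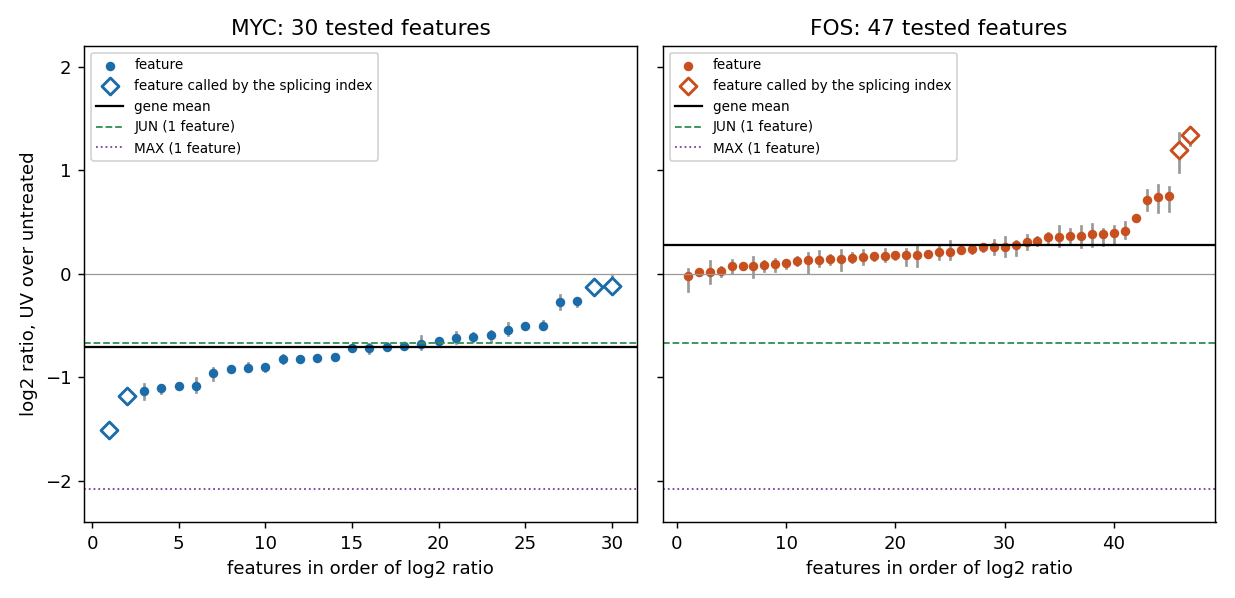
Log2 ratios (vertical axis) of the tested features of MYC (left, 30) and FOS (right, 47) in ascending order, each point the mean over replicates with a vertical line from the lowest to the highest replicate; diamonds mark features called by the splicing index, and lines mark the gene mean, JUN and MAX. All 30 MYC features lie below 0, from -1.51 to -0.12, and 5 tested FOS features stand above the rest at 0.71 to 1.34.

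The splicing index, the distance of a feature's log2 ratio from the mean of its gene's other features, asks which features left the course of their gene. It requires 3 or more features and so was not defined for MAX and JUN. At an adjusted p of 0.05 and 1.4-fold, 2.16% of the 33992 features tested were called lower and 1.76% higher. In MYC 2 of 30 features were called lower and 2 higher. Feature 39156 had an index of -0.83 (SE 0.030, adjusted p = 1e-05) and feature 6501, with a log2 ratio of -1.19, had -0.50 (SE 0.029). Feature 33056 had 0.59 (SE 0.027) and feature 29399 had 0.60 (SE 0.039), and both stayed near the untreated level while the gene mean fell. In FOS no feature was lower past 1.4-fold at p under 0.05, with or without adjustment, and 2 of 47 were called higher, feature 40242 with an index of 1.08 (SE 0.033) and feature 845 with 0.93 (SE 0.054). The exon or junction behind each feature was not known, so these indices name no splicing event. These counts of 2 moved with the settings, as given in the closing section.

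The dye orientation moved with part of these values. The distance of the direct array from the mean of both orientations, called the dye deviation here, was tested by limma over the 3 replicates, and 51.9% of genes and 48.6% of features tested on the whole array were called in either direction. For MAX the direct arrays averaged -1.79 and the dye-swap arrays -2.36 (dye deviation 0.28, SE 0.035, adjusted p = 0.0058). For FOS they averaged 0.35 and 0.21 (dye deviation 0.069, SE 0.015, adjusted p = 0.021). MYC, at -0.69 and -0.72, and JUN, at -0.71 and -0.62, did not pass (adjusted p = 0.65 and 0.15). For MYC and FOS the features averaged were not the same on each array. The call of MAX was lost without replicate 3 (adjusted p = 0.066), and that of FOS without replicate 2 (0.12) or replicate 3 (0.090). With 2 of 4 genes called, the members did not exceed the share of all genes. The sign of each of the 4 genes was the same in both orientations.

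Within FOS the orientation was called for 18 of 47 features, a smaller share than the 48.6% of all features, 16 with the higher ratio on the direct arrays. Feature 35544 had 1.01, 0.76 and 0.85 on the direct but -0.47, -0.11 and 0.08 on the dye-swap arrays, so its mean of 0.35 described neither orientation. Such opposite signs were found in 10 of the 47 FOS features and in none of the 30 MYC features. The FOS features lay nearer to 0 (median 0.21) than the MYC features (median -0.72), so a smaller shift turns their sign. The share of opposite signs over all features was not worked out, and the contrast is not read as a trait of FOS. Features 40242 and 845 were called by orientation in opposite directions, and both were at 0.90 or higher on every array. Across features, direct and dye-swap means correlated at r = 0.588 for FOS and 0.907 for MYC. In MYC 9 of 30 features were called, all with the smaller fall on the direct arrays. The share of all features called with the direct arrays higher was not worked out. The direction of these calls is therefore not read as a trait of FOS or MYC. Without the features whose orientations differed, the gene values were 0.20 for FOS and -0.67 for MYC.

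**Figure D3:**
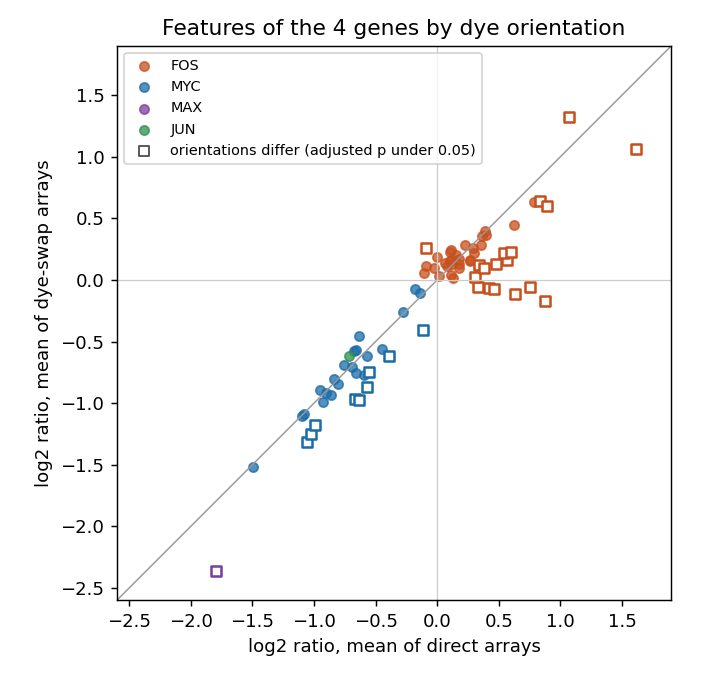
Log2 ratios of the tested features of the 4 genes as the mean of the direct arrays (horizontal axis) and of the dye-swap arrays (vertical axis), with the line of equality; open squares mark features whose orientations differed at an adjusted p under 0.05. The MYC features follow the line below 0 on both axes, while a group of FOS features lies above 0 on the direct and near or below 0 on the dye-swap arrays.

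Other genes that behaved like the 4 members were sought by the root mean square difference of log2 ratios over the 6 arrays, among the 760 genes with values on all of them. Nearest to MYC were CCNF, an F-box protein of the cell cycle (-0.67, difference 0.044), FADD, the adaptor of death receptors (-0.73, 0.072), and AURKA, a mitotic kinase (-0.70, 0.081). Of the 3 genes nearest to MAX, 2 are given, NR3C1, the glucocorticoid receptor (-1.85, 0.291), and SMAD7, the inhibitor of TGF-beta signalling (-1.76, 0.414), which were not the closest. These neighbours of MAX were several times more distant than those named for the other genes. Nearest to FOS were RAVER1 (0.26, 0.036), an RNA-binding partner of PTBP1, MTA1 (0.29, 0.044), a subunit of the NuRD complex, and KHSRP (0.29, 0.049). Nearest to JUN were DHX35, a helicase (-0.64, 0.077), ATG5, an autophagy protein (-0.71, 0.082), and APAF1, the core of the apoptosome (-0.66, 0.082).

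Of 29 listed partners and regulators of MYC and MAX, 2 could be tested. AURKA, whose protein is known to stabilize MYCN, fell by 0.70 (SE 0.021), and SKP2, a ubiquitin ligase subunit that targets MYC, rose by 0.26 (SE 0.017). No MXD gene was tested. Of the relatives of FOS and JUN, 3 were tested. CREB1, which binds the cAMP response element, fell by 0.47 (SE 0.029), ATF2, the partner of JUN at TGACATCA, fell by 0.21 (SE 0.030), and FOSL1, a FOS relative with 1 feature, did not pass at 0.035 (SE 0.055). The call of ATF2 was lost without replicate 3 (-0.20, adjusted p = 0.057).

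The kinases and factors that signal to FOS and JUN moved little. Of 27 tested, 11 fell, 10 rose and 6 did not pass, with a median of 0.026, near the 41.4% lower and 30.3% higher of all genes. MAP2K4, the kinase upstream of JNK and p38, fell most (-0.40, SE 0.021) and was the only one past 1.3-fold. The p38 kinase gene MAPK11, with 1 feature, rose most (0.31, SE 0.050; without replicate 3 0.26, adjusted p = 0.051). MAPK8, which encodes JNK1 and was chosen after its values were seen, had a direct mean of -0.22 and a dye-swap mean of 0.089, and its call was lost with the replicate block (adjusted p = 0.14). Without replicate 3 the counts were 3 lower and 2 higher, without replicate 1 they were 6 and 5, and without replicate 2 they were 12 and 14.

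Genes known to be controlled by MYC or AP-1 were called in both directions, as were 41.4% (lower) and 30.3% (higher) of all genes, and the lists are too short to be set against these shares. Of 11 tested genes that MYC activates, 2 fell, 4 rose and 5 did not pass (median 0.042). Without replicate 3 there were 2 rises, and without replicate 2 there were 4 falls and 5 rises. The splicing factor gene SRSF1 fell by 0.45 (SE 0.042), and the splicing factor gene PTBP1 rose by 0.26 (SE 0.027), from direct arrays at 0.40 and dye-swap arrays at 0.12. Of 4 tested genes that MYC represses, 1 fell and 2 rose. These were CDKN1B, the inhibitor p27, at -0.15 (SE 0.027) with opposite signs on the direct (-0.49) and dye-swap (0.19) arrays and no call with the replicate block (adjusted p = 0.12), CDKN1A, the inhibitor p21, at 0.10 (SE 0.022), and GADD45A, a growth arrest gene, at 0.45 (SE 0.019). Without replicate 3 only GADD45A among them was called, and CDKN1A was also lost without replicate 1 (adjusted p = 0.129). Of 6 tested genes that AP-1 activates, 2 fell and 3 rose (median 0.049), from the MAP kinase phosphatase DUSP1 at -0.48 (SE 0.017) to the cytokine TNF at 0.45 (SE 0.026). Without replicate 3 the 2 falls stood beside 1 rise.

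Short-lived transcripts other than MYC, FOS and JUN were mostly lower. Of 24 tested out of 61 listed, 15 fell, 4 rose and 5 did not pass, with 10 falls and 3 rises past 1.3-fold and a median of -0.22. Over all 775 genes 41.4% fell and 30.3% rose, 146 fell and 16 rose past 1.3-fold, and the median was -0.03. SMAD7 fell most (-1.76, SE 0.038), and WEE1, which restrains mitosis (-1.54), MCL1, which blocks apoptosis (-1.24), BBC3, which encodes PUMA (-1.21), BTG1 (-1.08), PLK2 (-0.91) and NFKBIA, the NF-kB inhibitor (-0.75), were all lower than MYC. FOS stood with the 4 genes that rose, CDKN1A, TNF, GADD45A and PMAIP1, which encodes NOXA and had the largest rise (0.99, SE 0.028). Leaving out any replicate gave 15 falls, with 3, 6 and 3 rises without replicates 1, 2 and 3. Since 7 of the 24 were read by 1 feature, the genes with 3 or more features were also fitted alone. In that fit 10 of 17 short-lived transcripts fell and 3 rose. Among all 466 genes with 3 or more features, 181 were called lower and 185 higher.

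**Figure D4:**
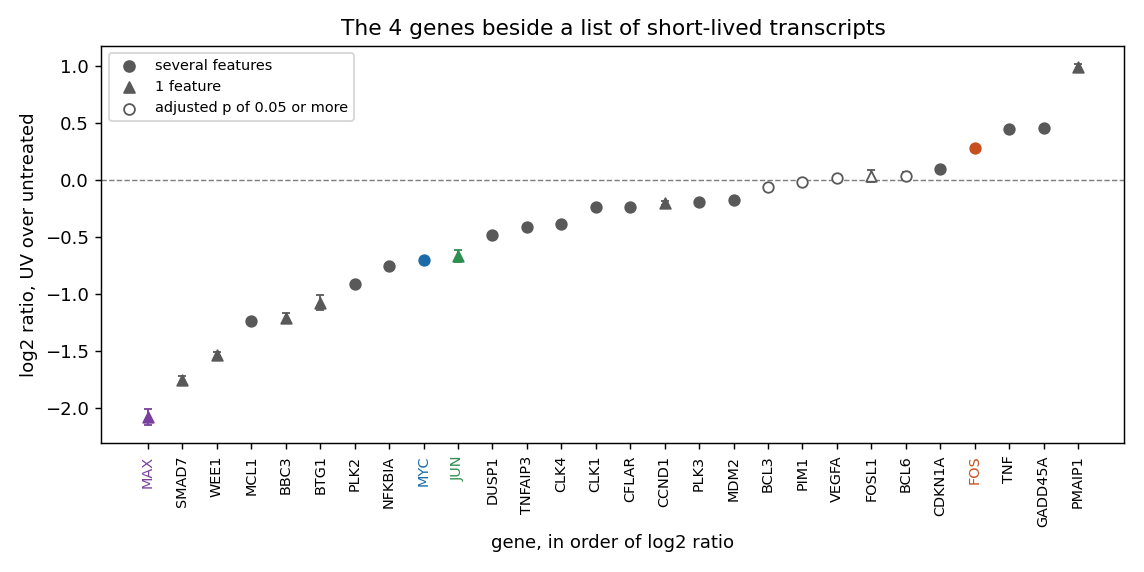
Log2 ratios with the SE by limma (vertical axis) of the 4 genes, in colour, and of 24 tested genes listed as short-lived, in grey, in ascending order; triangles are genes with 1 feature and open symbols did not pass an adjusted p of 0.05. MAX is lowest at -2.08, MYC and JUN lie within the falling genes at -0.70 and -0.67, and FOS lies among the few rising genes at 0.28.

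Of the factors that bind AU-rich elements or degrade mRNA, 9 were tested, and 5 fell and 4 rose (median -0.085), beside 41.4% and 30.3% of all genes. HNRNPDL, a relative of the AU-rich element binding protein HNRNPD, fell by 0.41 (SE 0.031), and KHSRP, which promotes decay of AU-rich mRNAs, rose by 0.29 (SE 0.029). Only 1 of these rises was called without replicate 1, and 1 without replicate 3. Of the markers of other cell types, CD14 alone was tested, at 0.25 (SE 0.043, 1 feature; without replicate 3 0.23, adjusted p = 0.071).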

How the data were processed

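Per the labels and the methods, total RNA of irradiated and untreated Hep3B cells was hybridized to 6 two-colour splicing-sensitive arrays. The kits for RNA and labelling differ between labels and methods. Background was corrected by normexp and arrays were normalized by LOWESS by the authors, who averaged all probes of a locus for gene expression. They deposited log2 ratios with 2 decimals, 1 column per array, with values on 36532 to 38392 features, empty cells at 15.1% to 19.2% and medians from -0.01 to 0.01. The rule for empty cells, the genome build of the array and the feature extraction software are not given in the sources used here, and scanner signal was not used here. UV over untreated is the likely direction of all columns, since the dyes in the labels give it for the direct arrays and columns of opposite orientation correlated at r = 0.538 to 0.663, from which the dye-swap columns were taken to be sign-turned already. A repeated dye effect also raises this correlation, and its part was not tested.

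Features were named from the platform annotation and updated to RefSeq symbols (GRCh38.p14), by accession for 38971, by symbol for 978 and by synonym for 197, and 5074 had no name. Gene means were taken on each array over the features with a value there. Both orientations of a replicate were then averaged, since the titles give both the same number. As a check, deviations of the numbered pairs correlated at -0.0039, 0.455 and 0.103 over 30881 features, while the unpaired arrays direct 1 and dye-swap 3 reached 0.424, and only replicate 2 was thus clearly paired in the values. The SD over replicates rests on these numbers. Features and genes with both orientations in at least 2 replicates were fitted with an intercept alone, all together, by limma 3.58.1 (R 4.3.3, statmod 1.5.0), two-sided, with p adjusted after Benjamini-Hochberg and called at 0.05. The SE is from the moderated variance over 3 replicates and leaves out the spread between features and a dye effect that repeats. Nothing in the labels describes how the biological replicates were made, so p-values measure the spread between these samples. In simulated data for the gene comparison (761 genes) the fit recovered 73.1% of 1.1-fold, 97.0% of 1.3-fold and 100% of 2-fold changes, with 3.74% of calls false, at a smaller share of changed genes than in the real data and with no dye effect.

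The members and the gene lists were chosen with earlier results of these data known, and no list was tested as a set. Named genes were the 4 members, the called gene with the largest fall and rise of each list, the 3 nearest genes to each member (1 of them not reported here), and the lowest and highest features of each member. Further genes and features were named after their values were seen, those called by the splicing index, in the figures or for their orientation among them. Alternatives covered scaling, orientation, a replicate block, a dye term, a robust prior, leaving out replicates, thresholds, incomplete features and the summary of a gene.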

Additional observations from a re-analysis of the deposited data

Results flagged for a closer look

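A difference between dye orientations was called for 2 of the 4 genes, which is no larger a share than the 51.9% of all genes tested. For MAX, the dye deviation, by which the direct arrays exceeded the mean of both orientations, was 0.2833 on the log2 scale, with the direct array higher in 3 of 3 replicates, and for FOS it was 0.06886, also in 3 of 3, by limma with adjusted p = 0.0058 and 0.021. The call of MAX was lost without replicate 3 (adjusted p = 0.066) and that of FOS without replicate 2 (0.12) or 3 (0.090). Both genes kept their sign in each orientation. The FOS features averaged were not the same on each array. The part of dye, labelling or feature in these differences was not tested.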

How the results depend on the processing

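The log2 ratios of MYC (-0.75 to -0.67), MAX (-2.36 to -1.79), FOS (0.20 to 0.35) and JUN (-0.74 to -0.62) kept their direction and their call under every alternative run for them, from 13 to 15 for each gene. One of these, leaving out the features that differ between orientations, was chosen after seeing the data. With all 6 arrays and the replicate number as a block, MYC was at -0.70, MAX at -2.08, FOS at 0.28 and JUN at -0.67, and the block changed no call of these 4 genes. The consensus correlation within a replicate was -0.51 for genes. This fit had no dye term, so a dye difference that repeats enters the correlation, and its part was not tested.

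Among all genes, the count called lower, 321, was 146 past 1.3-fold and 181 when the genes with 3 or more features were fitted alone. The count called higher, 235, was 16 past 1.3-fold, 126 at an adjusted p of 0.01 and 76 to 274 without 1 replicate, the lowest without replicate 3. The count of FOS features called higher, 37, was 10 past 1.3-fold and 22 to 37 without 1 replicate, the lowest without replicate 3. No FOS feature was called lower by limma under any setting run. Of MYC features called lower by the splicing index, 2, there was 1 on the direct arrays alone, 1 with complete features, 1 with the median of the other features as reference, 3 on the dye-swap arrays alone, 0 past 2-fold and 1 to 2 without 1 replicate, the lowest without replicate 1. Of those called higher, 2, there were 3 with direct and 6 with dye-swap arrays only, 4 with complete features and 0 past 2-fold. Of FOS features called higher, 2, there were 6 on the direct arrays alone, 5 with the median as reference, 1 past 2-fold and 2 to 4 without 1 replicate, the highest without replicate 2.

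Without 1 replicate, the dye deviation ran from -0.020 (without replicate 1, where its sign turned) to 0.035 for MYC, from 0.24 to 0.33 for MAX, no longer called without replicate 3 (adjusted p = 0.066), and from 0.056 to 0.078 for FOS, no longer called without replicate 2 or 3 (adjusted p = 0.12 and 0.090). In replicates 2 and 3 the MYC means took in untested features on the dye-swap but not on the direct arrays. Medians of the 30 tested MYC features were higher on the direct arrays of these replicates (-0.72 and -0.67) than on the dye-swap arrays (-0.775 and -0.75). With either direct or dye-swap arrays only, MYC minus MAX was 1.11 and 1.64, MAX minus FOS -2.14 and -2.57, MAX minus JUN -1.08 and -1.74, and MYC minus FOS -1.04 and -0.93, or -0.94 with the median of features. MYC minus JUN turned sign on the direct arrays (0.027) and without replicate 2 (0.040), and was -0.10 on the dye-swap arrays and -0.089 without replicate 3. The causes of these shifts were not tested.

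No signal over background was used here, so dim features could not be told from bright ones, and with 6 arrays and 1 feature each for MAX and JUN the precision of these rests on the number of arrays. No level, transcript isoform or time course can be read from these ratios.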
